A study of Mus musculus with 4 samples.

Results

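Fbw7-deficient LSK cells were compared with wild-type LSK cells of mouse bone marrow, gene by gene. LSK cells lack lineage markers and carry Kit and Sca1, the gate that holds hematopoietic stem cells and multipotent progenitors. The comparison used 2 of the 4 arrays of the study, 1 array per group, and its members were the 12239 of 18193 named genes whose highest intensity on the 4 arrays reached 157, the median of all values. The other 2 arrays hold wild-type and Fbw7-deficient myeloid progenitors (MP), which lack lineage markers and Sca1 and carry Kit, and their values stand beside the LSK values. The wild-type group was control marrow and the other group Fbw7-deficient marrow; the sources used here give neither the allele and how it was deleted nor the strain and age of the mice. All mice of both genotypes were injected 3 times with 20 ug of polyI:C per g and sampled 2 weeks after treatment, so the wild-type cells are also polyI:C-treated cells. PolyI:C, a synthetic double-stranded RNA, triggers interferon and is widely used to switch on the interferon-responsive Mx1-Cre. For each genotype the marrow of 3 mice was mixed before the sort, so each array holds 1 pool, both populations of a genotype come from those mice, and no spread between mice was measured. From each population 20 ng of total RNA was amplified in a 2-cycle protocol. With 1 array per group no test was possible, no standard error can be given, and every difference below is a size between 2 arrays with no replicate check.

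Fbw7, encoded by Fbxw7, is an F-box protein, the part of an SCF ubiquitin ligase that recognises phosphorylated substrates. Its known substrates include MYC, cyclin E, JUN and the Notch intracellular domain, which are then degraded by the proteasome. Most hematopoietic stem cells rest outside the cell cycle, and the study's title names control of that quiescence by Fbw7. Because Fbw7 acts on protein stability, RNA arrays do not see its direct effect on a substrate, only RNA levels in the sorted cells.

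Intensities are given as deposited, on the linear RMA scale, in a fixed order: LSK cells first (wild-type, then Fbw7-deficient), MP cells after them (again wild-type, then Fbw7-deficient). A log2 difference is Fbw7-deficient minus wild-type LSK unless MP is named, so a value of 1 is a 2-fold higher intensity. An intensity under 157 is not shown to be above background, and the fold of a gene with such a value on either array of a comparison is not established. Since each sorted population is a mixture, fewer cells of a type and less RNA per cell cannot be told apart on these arrays.

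The labelled cell type could be checked only in part. Of the genes that define the gate only Kit was read, and it does not separate LSK from MP. Kit read 6723, 5313, 6510 and 4190 and was bright on all 4 arrays, as the gate on Kit requires. Cd34, a sialomucin of progenitors that is not part of the gate described above, read 12745, 8783, 6491 and 1103. Both LSK arrays thus lay above both MP arrays. The probe annotation used gives no probe set the name Ly6a, the gene of Sca1, which was not analysed here. Genes of the T cell receptor complex and its coreceptors were dim on both LSK arrays: Cd3e read 239 and 303, Cd4 330 and 360, and Cd8a 394 and 435. The 12 kept markers of T and NK cells summed to 9832 in wild-type LSK and to 9610 in the Fbw7-deficient ones. Genes of other lineages were not all dim: the neutrophil genes Camp and S100a9, described below, were bright on both LSK arrays. A T cell receptor beta variable segment, Trbv1, read 102, 407, 93.5 and 79.6, over 157 on the Fbw7-deficient LSK array alone. Fbxw7 itself read 1355, 1103, 691 and 958; the sources used here do not say which part of the gene was removed, so this level does not check the genotype label. RNA quality differed between the 2 LSK arrays. For the Gapdh control the 3' over the 5' probe set gave a ratio of 4.30 on the wild-type and 2.75 on the Fbw7-deficient LSK array (MP: 2.60 and 2.95), and for Actb it was 3.53 and 2.89 (MP: 2.67 and 2.99). The wild-type LSK array, which enters every difference below, thus had the highest ratio of the 4 for both controls, and the part of RNA quality in the differences was not tested.

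Across the 12239 genes the median log2 difference was 0.00, and the 5th and 95th percentiles were -0.69 and 0.55. At least 2-fold higher in Fbw7-deficient LSK were 219 genes, which is 1.79% of the genes kept, and at least 2-fold lower were 239, or 1.95%. With the mean of all probe sets of a gene in place of the brightest, the counts were 174 and 133 of 10924 genes kept. With the brightest probe set, a 4-fold difference was reached by 51 genes in the higher and 11 in the lower direction. At 1.5-fold the counts leaned to the lower direction, with 551 higher and 867 lower. Of the 219 higher genes, 62 lay under 157 on the wild-type array, and of the 239 lower genes 39 lay under it on the Fbw7-deficient array. With genes split by mean LSK level into 4 bins of like size, from dimmest to brightest, 2.35%, 2.35%, 1.67% and 0.784% were higher and 1.76%, 2.84%, 1.96% and 1.24% lower, so the brightest bin had the smallest share in either direction. Between the MP arrays 101 genes (0.825%) passed 2-fold in the higher and 182 (1.49%) in the lower direction. Each group of genes below is described by its own counts and median, to be read against 1.79%, 1.95% and a median of 0.00. The gene lists were written with earlier results of these data known. Their shares are therefore descriptions and no independent support.

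**Figure D1:**
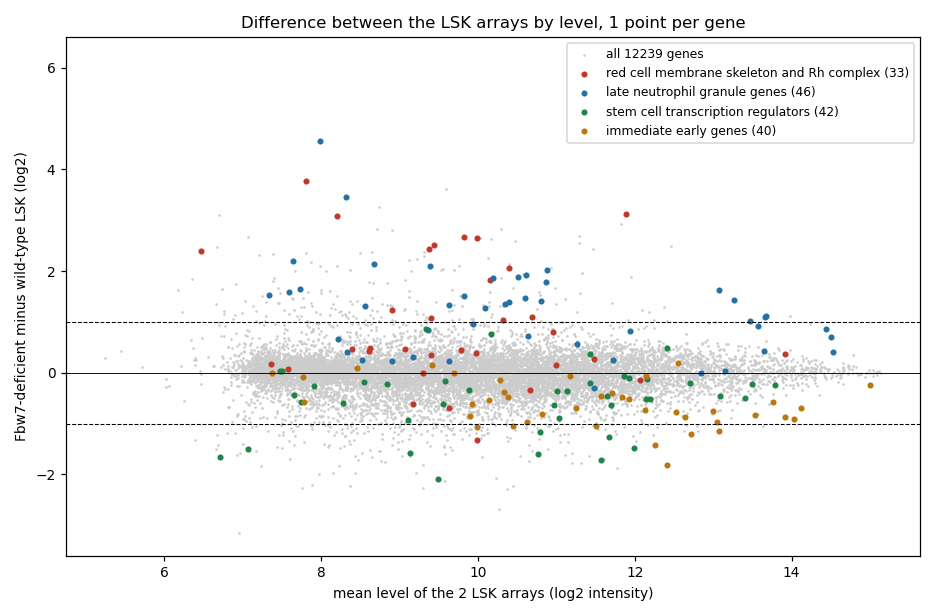
Difference between the LSK arrays (y axis, log2 of Fbw7-deficient minus wild-type) against the mean level of the 2 arrays (x axis, log2 intensity), 1 point per gene, with all 12239 genes in grey and dashed lines at 2-fold. Late neutrophil granule genes (blue) and red cell membrane genes (red) make up many of the highest points, with medians of 1.20 and 0.47, while stem cell transcription regulators (green) and immediate early genes (orange) lie mostly below 0, with medians of -0.45 and -0.66.

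Transcription regulators of hematopoietic stem cells were lower in Fbw7-deficient LSK. Of 42 kept, 9 were at least 2-fold lower, 36 lay below 0 and none was 2-fold higher, with a median of -0.45 (MP: -0.21). Hlf, a PAR bZIP factor of stem cells, read 5515, 1677, 478 and 391. Mecom, the zinc-finger gene of the Evi1 locus that is needed for stem cell maintenance, read 3043, 1006, 145 and 119. In both genes the Fbw7-deficient LSK array lay below wild-type LSK and still above both MP arrays, and the log2 differences were -1.72 and -1.60. Zfp467 read 1483, 350, 163 and 112 (log2 -2.08). Zfp521, a zinc-finger regulator of progenitors, read 974, 324, 205 and 51.0 (log2 -1.59) and was also lower in Fbw7-deficient MP (log2 -2.01). Gata3 (225 and 79.9) and Eya2 (186 and 59.1) lay under 157 on the Fbw7-deficient array. Meis1, the homeobox partner of HOX proteins, Ikzf2, of the Ikaros family, and Dach1 complete the 9. Meis1 read 6798, 2450, 1041 and 464 on its brightest probe set (log2 -1.47), but 2 further probe sets above the filter had smaller differences of -0.47 and -0.30. Ikzf2 read 5082 and 2102, and Dach1 2646 and 1184. The class was not uniform: Hmga2, a chromatin protein of fetal stem cells, read 4622, 6439, 722 and 476, and Id1, an inhibitor of basic helix-loop-helix factors, read 480, 872, 415 and 481. Of the Hox cluster genes, 9 of 33 on the array passed the filter and none differed by 2-fold (median -0.03). Hoxa9 was the brightest at 12858, 9114, 4566 and 2922 (log2 -0.50), and Hoxb4 read 262 and 176.

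Surface molecules and growth factor receptors of stem cells were split. Of 45 kept, 4 were at least 2-fold higher and 4 lower, with 32 below 0 and a median of -0.34. Lower were Mmrn1, which encodes multimerin 1 (1604, 367, 267 and 101; log2 -2.13), the angiopoietin receptor gene Tek (450, 169, 171 and 105; log2 -1.41), the lymphotoxin gene Ltb (1046, 449, 200 and 117; log2 -1.22) and Procr (2270, 1078, 187 and 116; log2 -1.07). Procr encodes the endothelial protein C receptor, a marker used to enrich stem cells. Higher were Met, Gda, Prom1 and Podxl. Met, the hepatocyte growth factor receptor gene, read 366, 1487, 1941 and 696, so the LSK arrays differed by log2 2.02 and the MP arrays by -1.48. Prom1, which encodes CD133, read 332, 937, 1551 and 3107, and the guanine deaminase gene Gda read 1135, 3613, 3872 and 5598. Podxl, a CD34-family sialomucin, read 203, 542, 169 and 2117, and its difference was larger in MP (log2 3.64) than in LSK (1.42).

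KLF and FOXO factors, CDK inhibitors and growth-arrest genes had a median of -0.35 (MP: -0.16), with 5 of 47 at least 2-fold lower and none higher. Klf6, a zinc-finger factor that responds to growth signals and stress, read 10226, 2924, 4607 and 1612 (log2 -1.81), and its 4 further probe sets had differences between -1.97 and -0.95. Klf2, a factor of lymphocyte and endothelial quiescence, read 12793, 5789, 6485 and 2697 (log2 -1.14). Txnip, which binds and inhibits thioredoxin, read 4794, 1550, 3004 and 1391 (log2 -1.63), with a further probe set at -0.39. Klf6, Klf2 and Txnip were lower in Fbw7-deficient than in wild-type cells of both populations, with MP differences from -1.52 to -1.11. The nuclear receptor gene Nr4a1 (10181 and 4437) and the TGF-beta-induced Klf10 (968 and 439) were the other 2. The CDK inhibitor genes stayed within 2-fold: Cdkn1a read 1873 and 1713, Cdkn1b 1409 and 990, and Cdkn1c 180 and 113, the last under 157 on the Fbw7-deficient array.

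Feedback inhibitors of receptor tyrosine kinase signalling were lower as a list (24 kept, 2 at least 2-fold lower, none higher, 3 above 0, median -0.48; MP median -0.16). Spry2 read 845, 301, 449 and 314 (log2 -1.49) and Spry1 2770, 1343, 772 and 531 (log2 -1.04); both encode Sprouty proteins, which restrain ERK signalling. The ERK phosphatase gene Dusp6 read 990, 526, 408 and 193 (log2 -0.91), and Dusp5, another ERK phosphatase gene, read 3749 and 1998. Vascular receptors and ligands had 5 of 25 genes at least 2-fold lower and none higher (median -0.17). Pdgfrb, the platelet-derived growth factor receptor beta gene, read 2919, 598, 937 and 166 (log2 -2.29, with a further probe set at -1.18). Vegfc, which encodes a lymphatic growth factor, read 500, 126, 146 and 54.2. Angpt1, which encodes the ligand of the Tek receptor, read 6564, 3213, 1695 and 827 (log2 -1.03), so ligand and receptor RNA were both lower. Calcrl, part of the adrenomedullin receptor, read 6149 and 3092 (log2 -0.99), just inside 2-fold.

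Genes of TGF-beta and BMP signalling, a pathway known to hold stem cells in quiescence, had a median of -0.33 (MP: -0.12), with 1 of 29 at least 2-fold lower, 1 higher and 8 above 0. Ltbp3, which encodes a latent TGF-beta binding protein, read 3895, 1263, 969 and 477 (log2 -1.62). The type II receptor gene Tgfbr2 read 4328, 2265, 1605 and 740 (log2 -0.93). The 1 higher gene, Acvrl1, lay under 157 in wild-type LSK (85.0 and 191). Polycomb, DNA methylation and other chromatin regulators had a median of -0.17, with 9 of 54 above 0 and 2 at least 2-fold lower. These were the histone deacetylase gene Hdac9 (330, 123, 92.6 and 33.8) and the H3K27 demethylase gene Kdm6b (2704, 1187, 1042 and 948). The 5-methylcytosine oxidase gene Tet1 read 1002 and 534 (log2 -0.91). Wnt pathway genes (27 kept) and Notch receptors, ligands and targets (37 kept) had medians of -0.02 each; none and 1 were at least 2-fold lower, and none was higher. Notch1 read 4139, 4787, 1650 and 974, and the Notch target gene Hes1 180, 216, 173 and 179, differences of 0.21 and 0.26.

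Megakaryocyte and platelet genes were lower as a list: of 34 kept, 9 were at least 2-fold lower, 2 higher and 8 above 0, with a median of -0.50 (MP: -0.29). Pf4, which encodes platelet factor 4 of the alpha granules, read 4338, 1272, 4032 and 2305 (log2 -1.77). Plek, encoding the platelet kinase substrate pleckstrin, read 5649, 1732, 2777 and 886 (log2 -1.71), and its 2 further probe sets were at -1.64 and -0.43. Slc18a2 (508 and 110) and Slc35d3 (474 and 98.9), which act in the filling of dense granules, lay under 157 in Fbw7-deficient LSK. Itga2b, the platelet integrin gene for CD41, read 3384, 1320, 2334 and 1427 (log2 -1.36). On the Fbw7-deficient LSK array Pf4 and Itga2b thus lay below both MP arrays, and Plek between them. The 2 higher members are not specific to platelets: the water channel gene Aqp1, which red cells also carry, read 610, 2149, 2638 and 5039, and the coagulation factor gene F10 read 211, 542, 820 and 969. Mast cell, basophil and eosinophil genes had a median of -0.36, with 4 of 20 at least 2-fold lower and 1 higher. The prostaglandin receptor gene Ptger3 read 2639, 844, 865 and 854 (log2 -1.64), Rgs1, a regulator of G protein signalling, read 8033, 2985, 2281 and 913 (log2 -1.43), and the mast cell carboxypeptidase gene Cpa3 read 2777, 1121, 4113 and 2012 (log2 -1.31). The basophil protease gene Mcpt8 went the other way at 780, 1736, 2007 and 3404 (log2 1.15).

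**Figure D2:**
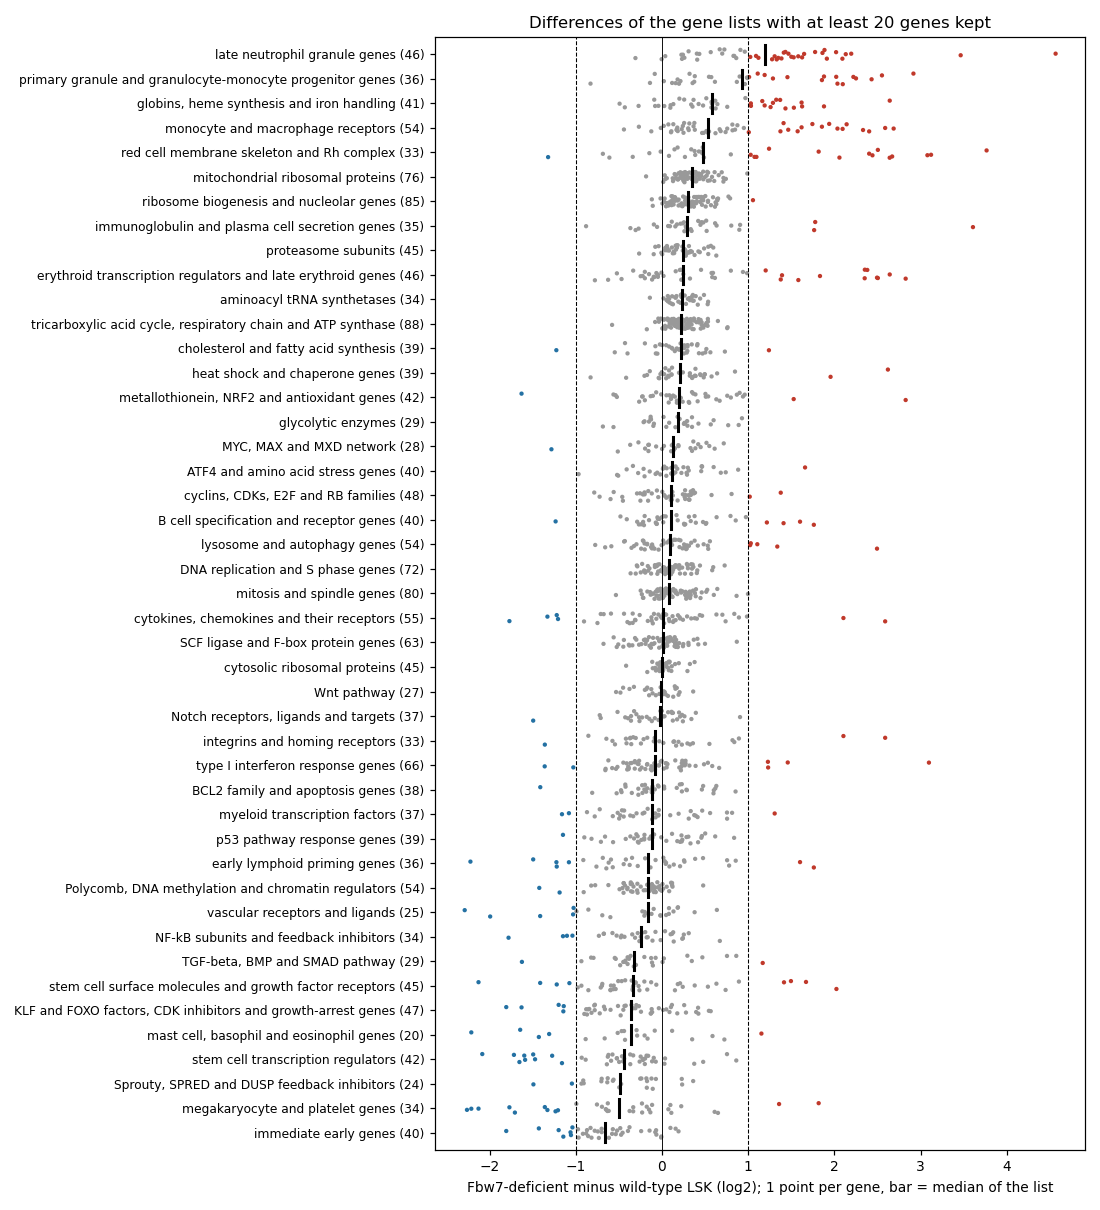
Log2 differences between the LSK arrays for the gene lists with at least 20 genes kept (y axis, number kept in brackets), 1 point per gene, with the list's median as a black bar, genes at least 2-fold higher in red and at least 2-fold lower in blue. Medians run from -0.66 for immediate early genes to 1.20 for late neutrophil granule genes, and mitochondrial ribosomal proteins form a narrow band with 75 of 76 genes above 0.

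Genes of the red cell membrane were among the erythroid genes with large differences. Of 33 genes of the membrane skeleton, band 3 and Rh complex, 14 were at least 2-fold higher in Fbw7-deficient LSK, 1 lower and 27 above 0, with a median of 0.47 (MP: 0.56). Their summed intensity was 40792, 70653, 66314 and 96847, so Fbw7-deficient LSK lay above wild-type MP and below Fbw7-deficient MP. Slc4a1, the anion exchanger band 3, read 1289, 11215, 2182 and 8481 and was brightest on the Fbw7-deficient LSK array. Its log2 difference was 3.12, and a further probe set gave 3.11. Epb42, which ties band 3 to the skeleton, read 60.7, 826, 197 and 706, with wild-type LSK under 157. A further probe set of Epb42 had a smaller difference, 0.82 against 3.77. The Rh genes Rhag and Rhd read 101, 855, 792 and 2447, and 358, 2282, 2640 and 4490 (log2 3.08 and 2.67), with Rhag in wild-type LSK under 157. Kel, the Kell blood group protease, read 285, 1548, 1174 and 2323, the tetraspanin gene Tspan33 read 407, 2538, 1934 and 4431, and Cldn13 read 293, 1663, 1904 and 4590. In these 3 genes Fbw7-deficient LSK lay within or close to the range of the MP arrays. The spectrin and ankyrin genes differed less, with Sptb at 313, 740, 456 and 912 (log2 1.24) and Ank1 at 892, 1820, 1651 and 3203 (log2 1.03). The 1 lower member, the aquaporin gene Aqp9, also works in leukocytes and liver; it read 1608, 644, 2384 and 2154 and was among 4 genes at least 2-fold below all other 3 arrays.

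The promoters of 5 of these and other erythroid genes are shown, chosen because they hold a GATA motif, a short sequence that erythroid GATA factors bind. Each line gives 100 bases of RefSeq sequence (GRCm38.p6), 5' to 3' on the gene's strand, with the motif AGATAA, or TTATCT where it lies on the opposite strand, in capitals. The motif starts 226 bases before the annotated start of Epb42 (chr2:121037028-121037127, minus strand), 43 before that of Rhd (chr4:134864446-134864545, plus), 56 before that of Kel (chr6:41704329-41704428, minus), 86 before that of Alas2 (chrX:150547284-150547383, plus) and 163 before that of Trim10 (chr17:36869364-36869463, plus).
Epb42: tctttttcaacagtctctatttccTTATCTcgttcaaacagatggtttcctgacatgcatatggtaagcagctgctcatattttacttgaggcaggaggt
Rhd: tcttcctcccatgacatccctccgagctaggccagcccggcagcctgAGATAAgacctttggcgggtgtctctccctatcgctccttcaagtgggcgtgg
Kel: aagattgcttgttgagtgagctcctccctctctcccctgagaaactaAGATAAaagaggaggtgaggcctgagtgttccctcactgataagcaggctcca
Alas2: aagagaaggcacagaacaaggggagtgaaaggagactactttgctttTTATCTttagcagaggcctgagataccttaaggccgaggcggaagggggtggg
Trim10: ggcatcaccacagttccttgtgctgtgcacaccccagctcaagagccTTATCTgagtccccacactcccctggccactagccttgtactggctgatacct
Searched on both strands of windows of 300 bases, 250 before to 50 after the start, AGATAA occurred in 11.2% of all 32851 RefSeq windows and in 8.12% of the 9869 kept genes with a window. It occurred in 9 of the 26 red cell membrane genes with a window and in 11 of 36 erythroid transcription regulators and late erythroid genes. The globin, heme and iron genes held it in 6 of 32 (18.8%) and the late neutrophil granule genes in 10 of 42 (23.8%). Among all genes at least 2-fold apart it was found in 34 of 174 higher and 28 of 186 lower ones (19.5% and 15.1%). The windows of Rhag, Klf1 and Tspan33 hold no AGATAA, and Slc4a1 and Cldn13 had no window in the sequences used. Only this form was searched. The Rhag and Klf1 windows hold TTATCA, which reads TGATAA on the opposite strand and so also contains GATA. A match is a string of letters in the window and no evidence of binding in these cells.

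Heme synthesis and iron handling genes were higher, while no globin gene read by a probe set of its own reached 2-fold. Of 41 kept, 14 were at least 2-fold higher, none lower and 35 above 0, with a median of 0.58 (MP: 0.41). The list includes the erythroid gene Trim10, which had its largest difference (log2 2.64) and is described below. Alas2, the erythroid enzyme of the first step of heme synthesis, read 1048, 3028, 1970 and 2124 (log2 1.53), and its housekeeping relative Alas1 read 3403, 8306, 12040 and 13834 (log2 1.29). The last enzyme of the pathway, ferrochelatase, was also higher, with Fech at 2701, 5520, 4422 and 5821 (log2 1.03). Among iron genes, the transferrin receptor gene Tfrc read 3068, 7004, 9290 and 12956 (log2 1.19, with 1.15 and 0.92 on further probe sets). The mitochondrial iron importer gene Slc25a37 read 2078, 5375, 3311 and 4097 (log2 1.37), and the iron exporter gene Slc40a1 read 467, 1435, 1917 and 3907 (log2 1.62). Alas2 and Slc25a37 were brightest on the Fbw7-deficient LSK array, whereas Tfrc and Slc40a1 were brightest in Fbw7-deficient MP. Tfr2, the second transferrin receptor gene, lay below 0 at 4886, 3475, 4606 and 8285 (log2 -0.49). Hba-a1 read 114, 101, 110 and 111, under the filter level on all 4 arrays. Probe sets naming several genes were left out, so globin RNA read only by such probe sets would be missed here. The adult beta globin gene Hbb-b2 read 772, 1510, 1083 and 1668 (log2 0.97), and the alpha globin gene Hba-a2 221, 164, 157 and 139. Lcn2, Ltf and Hp, 3 of the 14 higher genes, encode iron- or hemoglobin-binding proteins that neutrophil precursors make, so they also belong to the granule genes below.

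Erythroid transcription regulators differed from one another. Of 46 regulators and late erythroid genes kept, 12 were at least 2-fold higher and none lower, with a median of 0.24 (MP: 0.56). The list includes the metallothionein gene Mt1, which had its largest difference (log2 2.83) and is described below. Klf1, the erythroid Kruppel-like factor, read 1014, 3035, 5856 and 11681 (log2 1.58). Gata1, the master erythroid GATA factor, read 1528, 1784, 3929 and 5992 and differed by only 0.22. Trim10, an erythroid tripartite-motif gene, read 420, 2619, 996 and 2004 (log2 2.64), and Fhdc1 read 177, 922, 325 and 535 (log2 2.38). Both were brighter in Fbw7-deficient LSK than on either MP array, while Klf1 and Gata1 were brighter on both MP arrays. The aspartic protease gene Ctse read 2370, 13357, 7568 and 17345 (log2 2.49), although a further probe set gave 0.65. The amino acid transporter gene Slc38a5 read 160, 816, 1845 and 3802 (log2 2.35). The DNA-binding protein gene Myb (12441 and 10654) and Lmo2 (15415 and 12988), which act in early progenitors, differed by -0.22 and -0.25.

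**Figure D3:**
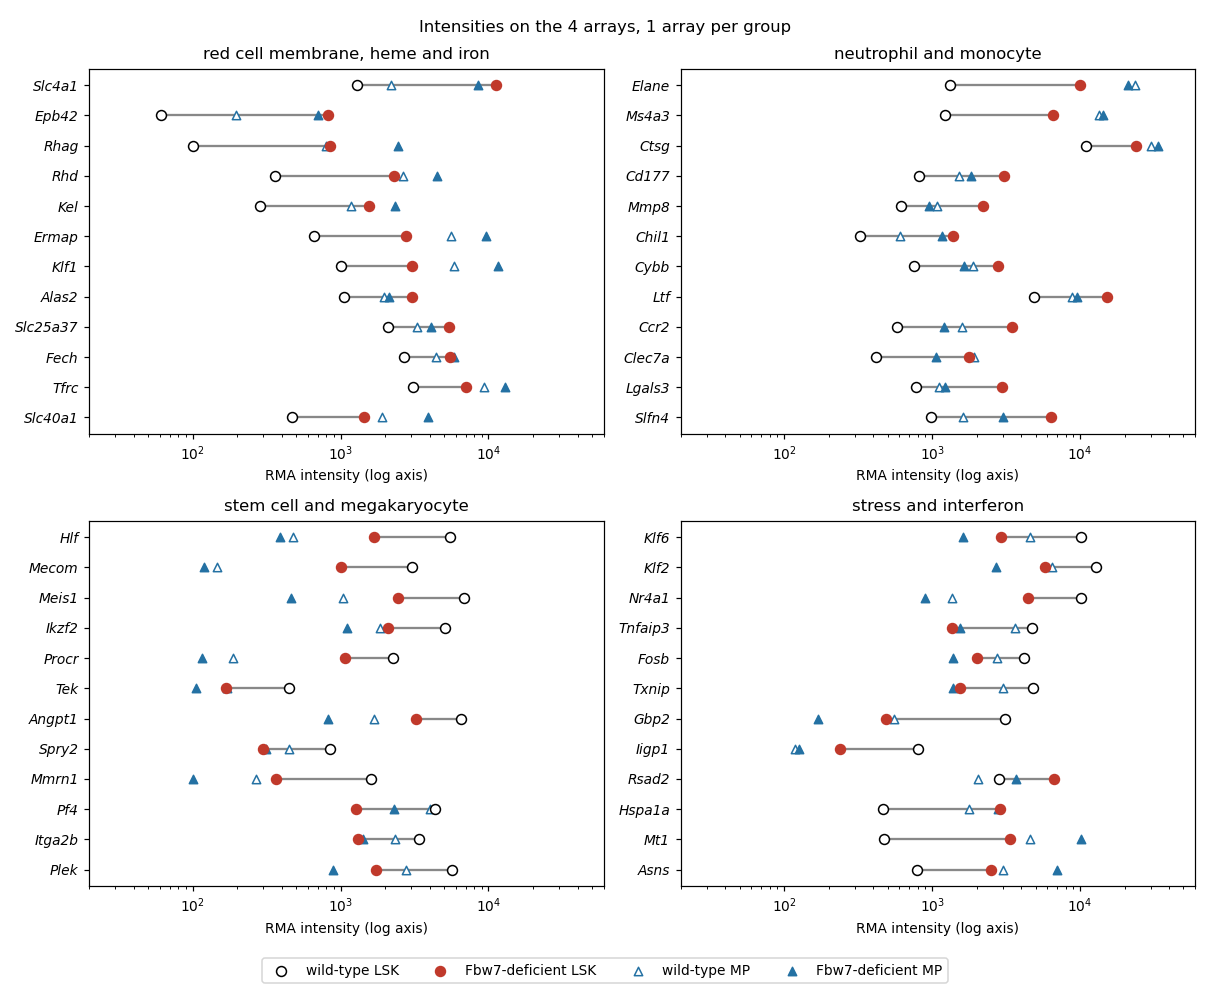
Intensities (x axis, log scale) of 48 genes in 4 panels by function, with wild-type LSK as an open circle joined by a line to Fbw7-deficient LSK (red circle), and wild-type and Fbw7-deficient MP as open and filled triangles; 1 array per group, so there are no error bars. Slc4a1 is brightest on the Fbw7-deficient LSK array at 11215, Elane at 9986 stays below both MP arrays, Hlf at 1677 lies between wild-type LSK and MP, and Slfn4 at 6340 lies above the other 3 arrays.

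Genes of neutrophil primary granules and of granulocyte-monocyte progenitors were higher in Fbw7-deficient LSK and near even between the MP arrays. Of 36 kept, 15 were at least 2-fold higher, none lower and 33 above 0, with a median of 0.93 (MP: -0.06). Elane, neutrophil elastase, read 1322, 9986, 23552 and 21158 (log2 2.92), and Ms4a3, a membrane protein of granulocyte-monocyte progenitors, read 1225, 6609, 13381 and 14225 (log2 2.43). On the Fbw7-deficient LSK array both were far above wild-type LSK and below both MP arrays. Igsf6, an immunoglobulin-family gene of myeloid cells, read 515, 2449, 3860 and 3957 (log2 2.25), and Tifab read 259, 1205, 1176 and 735 (log2 2.22). F13a1, the coagulation factor XIII subunit of monocytes, read 1035, 6073, 6264 and 3531, and its MP difference had the opposite sign (log2 2.55 and -0.83). The serine protease gene Ctsg, already bright, read 10997, 23750, 30258 and 33748 (log2 1.11). The myeloperoxidase gene Mpo differed least of these at 24989, 31967, 36135 and 36278 (log2 0.36).
The Elane promoter is shown for its match to the PU.1 motif GAGGAAGT (capitals), since PU.1 is a main transcription factor of these cells; the match starts 85 bases before the annotated start (GRCm38.p6, chr10:79886181-79886280, plus strand, RefSeq).
Elane: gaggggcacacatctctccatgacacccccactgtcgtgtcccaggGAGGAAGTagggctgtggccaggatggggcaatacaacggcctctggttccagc
This motif, searched on both strands, was in 3.20% of all windows and in 3.81% of the 9869 kept genes with a window. It was in 14 of 174 higher genes and in 14 of 186 lower genes (8.05% and 7.53%). The window of Ms4a3 holds no match.

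Late neutrophil granule genes had the highest median of the lists with at least 20 genes. Of 46 kept, 26 were at least 2-fold higher, none lower and 44 above 0, with a median of 1.20 against 0.06 in MP. Their summed intensity was 155044, 278463, 224043 and 233305, so Fbw7-deficient LSK was the brightest array and wild-type LSK the dimmest. Ltf, the lactoferrin gene of specific granules, read 4904, 15132, 8866 and 9563 (log2 1.63). The neutrophil collagenase gene Mmp8 read 612, 2223, 1084 and 955, and the surface antigen gene Cd177 809, 3047, 1508 and 1822 (log2 1.86 and 1.91). Cybb, the catalytic subunit of the NADPH oxidase, read 758, 2802, 1887 and 1636 (log2 1.89). In all 4 genes Fbw7-deficient LSK lay above both MP arrays. Chil1, a chitinase-like protein of specific granules, read 324, 1381, 604 and 1159 (log2 2.09), and Lrg1 read 196, 859, 359 and 877 (log2 2.13). Camp (8874 and 19276), S100a9 (8900 and 18964) and Chil3 (7921 and 16115) were bright even in wild-type LSK and near 2-fold higher. Csf3r, the receptor gene for G-CSF, read 3183, 2572, 2404 and 2215 (log2 -0.31). Granule genes of mature neutrophils thus read higher in a population sorted as lineage-negative; the part of other cells in the gate was not tested.

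Myeloid transcription factors as a list were not higher (37 kept, 1 at least 2-fold higher, 2 lower, median -0.11; MP: -0.30). Cebpd, a factor of granulocyte maturation, read 810, 2006, 2648 and 2272 (log2 1.31), whereas Cebpa, the factor of the granulocyte-monocyte branch, read 451, 601, 1416 and 706 (log2 0.41). Spi1, which encodes PU.1, read 1170, 1618, 1584 and 1522 (log2 0.47). The lower genes were Dach1 and Runx3; Runx3, a Runt-family factor of lymphoid cells, read 1198, 567, 678 and 553 (log2 -1.08).

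Monocyte and macrophage receptors were higher in LSK and slightly below even in MP. Of 54 kept, 16 were at least 2-fold higher, none lower and 50 above 0, with a median of 0.54 (MP: -0.14) and summed intensities of 36444, 67869, 62761 and 48812. Ccr2, the chemokine receptor of inflammatory monocytes, read 578, 3476, 1593 and 1208 (log2 2.59, with 2.30, 1.77 and 0.14 on further probe sets). Lgals3, which encodes galectin-3, read 779, 2990, 1120 and 1227 (log2 1.94). Slfn4, a Schlafen gene of macrophages and interferon-treated cells, read 984, 6340, 1628 and 3012 (log2 2.69). Fn1, the fibronectin gene, read 644, 2842, 986 and 1409 (log2 2.14). Ccr2, Lgals3, Slfn4 and Fn1 were at least 2-fold brighter in Fbw7-deficient LSK than on each of the other 3 arrays. Ccr1 read 142, 610, 235 and 284, and the fungal glucan receptor gene Clec7a read 419, 1789, 1908 and 1058. The scavenger receptor gene Cd36, which erythroid progenitors also carry, read 38.8 and 205. Toll-like receptor genes differed little: Tlr2 read 739 and 794, and Tlr4 292 and 296. Lysosome and autophagy genes (54 kept) had 5 at least 2-fold higher, none lower and a median of 0.10, among them the cathepsin genes Ctse, Ctsh (442, 952, 935 and 617) and Ctsz (3386, 6915, 10527 and 7250).

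Of the 7 kept members of the stefin A and apolipoprotein L families, 4 were at least 2-fold higher and none lower. Stefins A are inhibitors of cysteine proteases made in neutrophil precursors. Stfa3 read 52.4, 1240, 45.8 and 737, and Stfa2l1 96.2, 1063, 149 and 778. Apol8 read 138, 1321, 224 and 1011, and Apol11b 159, 1119, 322 and 683. In all 4 genes both Fbw7-deficient arrays lay above both wild-type arrays, and the log2 differences ran from 2.82 to 4.57 in LSK and from 1.09 to 4.01 in MP. The wild-type LSK values of Stfa3, Stfa2l1 and Apol8 were under 157, so their folds are not established. The other 3 of the 7 kept members, Cstb, Apol6 and Apold1, lay within 0.18 of 0 in either direction.

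Lymphoid genes did not move as a block. Early lymphoid priming genes had a median of -0.16 (36 kept, 2 at least 2-fold higher, 5 lower; MP median -0.38). P2ry10, a purinergic receptor gene of lymphocytes, read 715, 153, 42.1 and 39.7, and Rgs18 read 7339, 3141, 4162 and 1822 (log2 -1.22). Against these, Rag1, the recombinase gene of antigen receptor assembly, read 221, 749, 162 and 74.5 (log2 1.76). Blnk, an adaptor of the B cell receptor, read 319, 969, 404 and 174 (log2 1.60), and both were at least 2-fold brighter in Fbw7-deficient LSK than on every other array. B cell specification and receptor genes had a median of 0.11 in LSK and -0.49 in MP, with 4 of 40 at least 2-fold higher and 1 lower. Ebf1, the early B cell factor, was higher with its wild-type value under 157 (94.8 and 220), and Ly86 read 823, 2188, 3245 and 1112 (log2 1.41). The lower gene, Cd72, an inhibitory coreceptor, read 1652, 703, 563 and 258 (log2 -1.23).

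Immunoglobulin and plasma cell genes had 3 of 35 at least 2-fold higher and none lower, with a median of 0.29 (MP: -0.12). Igha, the IgA heavy chain gene, read 221, 2696, 4238 and 523, and Jchain, which joins IgA and IgM polymers, read 211, 725, 435 and 126. Both were higher in Fbw7-deficient LSK and lower in Fbw7-deficient MP, by log2 3.61 and -3.02 for Igha and 1.78 and -1.78 for Jchain. Fkbp11, a chaperone of secretory cells, read 250, 849, 834 and 1531. Ighm, the IgM heavy chain gene, read 7738, 10545, 5850 and 2718 (log2 0.45), while 1 of its 5 further probe sets had a difference of 3.84 and the other 4 lay between 0.15 and 0.41. Immunoglobulin RNA is very abundant in single plasma cells; the part of such cells in either sort was not tested.

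MHC class II presentation genes had a median of -0.24, with 3 of 17 at least 2-fold lower and none higher. H2-Ob, the beta chain of the peptide-exchange inhibitor H2-O, read 2461, 584, 469 and 104 (log2 -2.07). The classical chains H2-Ab1 (1407, 568, 1248 and 500) and H2-Aa (1172, 546, 895 and 294) were lower in Fbw7-deficient cells of both populations. Ifi30, the lysosomal thiol reductase gene of antigen processing, read 897 and 1791, just inside 2-fold. The GIMAP genes, small GTPases of lymphocyte survival that sit in 1 cluster, had 8 intensities that summed to 8758, 7663, 1679 and 1421, although Gimap3 read 361, 443, 366 and 387. Lower by less than 2-fold were 5 of them, such as Gimap6 (2722, 1726, 275 and 176) and Gimap8 (1691, 1041, 86.1 and 76.3), with a median of -0.33. Gimap4 stood alone at 275, 1297, 203 and 202 (log2 2.24), at least 2-fold above each other array.

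Interferon genes went both ways. Interferon-inducible GTPases, which act against intracellular pathogens, had a median of -0.38, with 2 of 11 at least 2-fold lower and 1 higher. Gbp2, a guanylate-binding protein gene, read 3121, 485, 555 and 169, and its log2 difference was -2.69, with -2.14 on a further probe set. Iigp1, an immunity-related GTPase gene, read 799, 239, 118 and 125 (log2 -1.74). Gbp2b was the higher one, with a wild-type value under 157 (90.0 and 313). The wider list of type I interferon response genes had a median of -0.08, with 4 of 66 at least 2-fold higher and 2 lower. Rsad2, which encodes the antiviral protein viperin, read 2853, 6700, 2046 and 3705 (log2 1.23, with 1.38 and 1.36 on further probe sets). Ifit2, an RNA-binding antiviral gene, read 2400, 1177, 1229 and 847 (log2 -1.03), and Trim30d read 812, 316, 300 and 182 (log2 -1.36). Ifi44l read 35.7, 305, 36.1 and 44.1, above 157 only on the Fbw7-deficient LSK array. The Schlafen genes Slfn1 (120 and 331) and Slfn2 (533 and 1250) were higher, as was Slfn4 above. All mice had polyI:C, so a genotype difference in the response to it and any other genotype difference cannot be told apart.
The Gbp2 promoter is shown for its interferon response element, searched as GAAA, any 2 bases and GAAA, here on the opposite strand (capitals), in a window of GRCm38.p6 from RefSeq (chr3:142620559-142620658, plus strand) with the match starting 59 bases before the gene's start.
Gbp2: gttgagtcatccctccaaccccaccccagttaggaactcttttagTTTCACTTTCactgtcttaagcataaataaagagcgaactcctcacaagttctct
The motif, searched on both strands, was in 3.44% of all windows and in 3.67% of the 9869 kept genes with a window. Of genes with a window it was in 7 of 9 interferon-inducible GTPase genes and 20 of 53 type I interferon response genes. It was in 18 of 186 lower genes (9.68%) and 7 of 174 higher genes; the window of Ifi44l held none.

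Immediate early genes, which are switched on within minutes of a stimulus or of cell handling, had the lowest median of the lists with at least 20 genes. Of 40 kept, 7 were at least 2-fold lower, none higher and 3 above 0, with a median of -0.66 in LSK and -0.50 in MP. Their summed intensity was 276227, 170911, 164534 and 111122. Besides Klf6, Klf2, Rgs1 and Nr4a1, described above, the AP-1 subunit gene Fosb read 4206, 2024, 2758 and 1393 (log2 -1.06), the circadian gene Per1 read 1472, 706, 585 and 495 (log2 -1.06), and Csrnp1 read 2002 and 975. The phosphatase gene Dusp1, the brightest of these at 22723, 13996, 17119 and 11035, differed by -0.70. How long the sorts took is not stated in the sources used here, and the part of handling was not tested. NF-kB subunits and feedback inhibitors had a median of -0.24, with 4 of 34 at least 2-fold lower and none higher. Tnfaip3, which encodes the ubiquitin-editing inhibitor A20, read 4714, 1373, 3616 and 1547 (log2 -1.78), and Nfkbiz read 4601, 2143, 1497 and 612 (log2 -1.10). Both had lower values on each Fbw7-deficient array than on the wild-type array of the same population.

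Heat shock and metallothionein genes held a few large differences in otherwise narrow lists. Of 39 heat shock and chaperone genes, 2 were at least 2-fold higher, none lower and 30 above 0 (median 0.21). The inducible HSP70 genes Hspa1a and Hspa1b read 464, 2857, 1775 and 2807, and 1301, 5049, 3321 and 6117. Wild-type LSK was the dimmest array for both, and the differences were 2.62 and 1.96, with 2.35 and 2.23 on further Hspa1b probe sets. The 2 genes are neighbours with near-identical sequence, so their probe sets cannot be taken as independent. The stretches that the probe sets read were not compared. Their promoters, which do not bear on the probe sets, are shown with the heat shock element GAANNTTC in capitals, 104 bases before each start (GRCm38.p6, RefSeq, minus strand, chr17:34972207-34972306 and chr17:34959289-34959388).
Hspa1a: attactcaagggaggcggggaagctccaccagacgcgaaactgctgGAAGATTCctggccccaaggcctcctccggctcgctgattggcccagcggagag
Hspa1b: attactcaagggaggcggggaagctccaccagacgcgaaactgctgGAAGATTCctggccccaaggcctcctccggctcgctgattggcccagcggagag
The 2 windows differed at 4 of 300 bases. The element, searched on both strands, was in 7.86% of all windows and in 6.90% of the 9869 kept genes with a window. It was in 15 of 34 heat shock genes with a window. Dnajb1, the HSP40 partner, read 10027, 7517, 7282 and 6770 (log2 -0.42), while the cochaperone gene Fkbp4 read 2932, 5275, 4524 and 5293 (log2 0.85) and the HSP110-family gene Hspa4 read 6231, 9709, 8047 and 9472 (log2 0.64). Among 42 metallothionein, NRF2 and antioxidant genes (2 higher, 1 lower, median 0.20), the metal-binding Mt1 read 472, 3346, 4573 and 10197 (log2 2.83) and Mt2 466, 811, 2948 and 7921 (log2 0.80). Asns, the asparagine synthetase gene, was the only one of 40 ATF4 and amino acid stress genes at 2-fold, reading 787, 2487, 3015 and 6977 (log2 1.66, with 1.91 on a further probe set). The ATF4-induced Ddit3 read 541 and 429.

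Most genes of the MYC network and the cell cycle stayed within 2-fold, with Mxd4, Ccne1 and E2f2 as exceptions among those named here. Jun, which encodes a known substrate, read 11850, 6032, 7989 and 3955, a log2 difference of -0.97 in LSK and -1.01 in MP, just inside 2-fold in LSK. Myc read 5608, 6407, 4073 and 4457 (log2 0.19), and Mycn 2551, 1976, 461 and 314 (log2 -0.37). In the MYC, MAX and MXD network of 28 genes, 1 was at least 2-fold lower and none higher: Mxd4, which encodes a MYC antagonist, read 2127, 875, 1132 and 857 (log2 -1.28). Of 48 cyclin, CDK, E2F and RB genes, 2 were at least 2-fold higher and none lower (median 0.11). The cyclin E1 gene Ccne1 read 1260, 2553, 3445 and 6673 (log2 1.02, with 0.80 on a further probe set), and Ccne2 815, 1063, 876 and 1265 (log2 0.38). E2f2, an S phase factor that erythroid precursors express strongly, read 834, 2167, 1037 and 1780 (log2 1.38). The proliferation marker Mki67 was bright in all, at 13163, 14714, 12818 and 13858 (log2 0.16). Of 72 DNA replication and 80 mitosis genes none differed by 2-fold, and the medians were 0.09 and 0.08. The condensin gene Ncapg came closest at 1457, 2909, 960 and 1079, just inside 2-fold, and the mitotic ubiquitin enzyme gene Ube2c read 3125, 5693, 3802 and 5686 (log2 0.87). The SCF ligase and F-box genes, the family of Fbw7 itself, were even (63 kept, none past 2-fold, median 0.01). Their largest difference was that of the ubiquitin-conjugating enzyme gene Cdc34, which feeds SCF ligases (1414, 2582, 2304 and 3412; log2 0.87). p53 response genes and the joint list of BCL2 family and apoptosis genes had medians of -0.12 and -0.11. Each had 1 gene at least 2-fold lower, the kinase gene Plk2 (1378, 622, 341 and 225) and the caspase gene Casp12 (430, 162, 130 and 110).

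In 5 lists of growth and energy metabolism most members were higher by small amounts, while cytosolic ribosomal proteins and glycolytic enzymes were more evenly divided. Of 76 mitochondrial ribosomal proteins 75 lay above 0, with a median of 0.35 (MP: 0.26) and none past 2-fold; Mrps22 came closest at 1510, 3000, 2164 and 3185 (log2 0.99). Of 34 aminoacyl tRNA synthetases 33 lay above 0 (median 0.23), with the cysteine enzyme Cars at 285, 414, 357 and 483 and the arginine enzyme Rars at 3181, 4594, 5197 and 5467. Ribosome biogenesis genes had 82 of 85 above 0 and a median of 0.30, and the nucleolar methyltransferase gene Ftsj3 was the only one at 2-fold (458, 952, 935 and 1222; log2 1.06). Of 88 genes of the tricarboxylic acid cycle, respiratory chain and ATP synthase 81 lay above 0 (median 0.23), led by Atp5g1 (2178, 3691, 3884 and 5400) and Uqcrq (1849, 3124, 3689 and 4696). Proteasome subunits had 40 of 45 above 0 and a median of 0.24, against 0.07 in MP. The immunoproteasome subunit Psmb9 was an exception at 3808, 3169, 3470 and 2113. Cytosolic ribosomal proteins, many of them near the top of the intensity scale, had 21 of 45 above 0. Over all genes kept 50.7% lay above 0, so these shares stand on an even background, but the genes of 1 list can vary together. In glycolysis 19 of 29 lay above 0 (median 0.18); the pyruvate dehydrogenase subunit Dlat (810, 1541, 1233 and 2088) and the lactate transporter Slc16a1 (2610, 4837, 4570 and 6175) led, and the glucose transporter Slc2a1 (1006, 626, 469 and 372) was lowest. In sterol and fatty acid synthesis (39 kept, median 0.22) Fdps of the mevalonate pathway was higher (310, 733, 602 and 810; log2 1.24) and the acetyl-CoA synthetase Acss2 lower (859, 368, 718 and 1086; log2 -1.23).

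Markers of stromal and endothelial cells were measured because marrow stroma could enter a sort. Of 19 kept, 3 were at least 2-fold higher and 1 lower, and they summed to 12398, 13680, 8503 and 10422. The collagen genes Col1a2 (288, 1413, 1225 and 2393) and Col1a1 (163, 326, 324 and 713) and Fn1 were higher, whereas Pdgfrb was lower. Of 13 dendritic cell markers 2 were at least 2-fold lower, H2-Ab1 and H2-Aa, and the list summed to 19630, 18523, 16617 and 7440. Thy1, a T cell marker that stem cells also carry, read 521, 206, 128 and 129 (log2 -1.34). The part of these cell types in the differences was not tested.

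Further genes with large differences belonged to no list. Among the higher ones were the sphingomyelin synthase gene Sgms2 (182, 1279, 1784 and 3505) and the protease gene Asprv1 (278, 1452, 381 and 794). Plek2 (43.5, 242, 70.0 and 427) and Ifi202b (53.2, 340, 45.2 and 212) were higher on both Fbw7-deficient arrays, from wild-type values under 157. Among the lower ones were Bend4 (1378, 287, 367 and 127) and Itih5, of the inter-alpha-trypsin inhibitor family (6678, 1826, 660 and 256). Rab37, a secretory Rab GTPase gene, read 1179, 299, 431 and 229, the sodium-proton exchanger gene Slc9a9 689, 175, 249 and 124, and the maternally imprinted Sgce 1182, 334, 214 and 245. Klhl4 read 370, 41.9, 27.6 and 21.7, with Fbw7-deficient LSK under 157.

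The MP arrays place these differences. Of the 219 higher genes, Fbw7-deficient LSK lay below both MP arrays in 80, between them in 46 and above both in 93. Of the 239 lower genes, it lay above both MP arrays in 133, between them in 72 and below both in 34. At least 2-fold above each of the other 3 arrays were 21 genes, among them Ccr1, Ccr2, Fn1, Gimap4, Ifi44l, Lgals3, Mmp8, Rag1, Blnk and Slfn4. At least 2-fold below each were 4 genes: Adamts3, Aqp9, Cryl1 and Lhfpl2. The wild-type LSK array was more often the extreme one, at least 2-fold above the other 3 arrays in 168 genes and below them in 116. These orders use the LSK arrays that define the difference and are given as descriptions. The same orders were not counted over all genes kept, so the counts have no background beside them.

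Set beside the genotype difference in MP, which uses the other 2 arrays but the same pools of mice, 46 genes were at least 2-fold higher in both populations. They make up 21.0% of the genes higher in LSK, where 0.825% of all genes were higher in MP, and 45.5% of those higher in MP, where 1.79% of all genes were higher in LSK. At least 2-fold lower in both were 55 genes. They make up 23.0% of the LSK genes, against 1.49% of all genes lower in MP, and 30.2% of the MP genes, against 1.95% of all genes lower in LSK. Shared higher genes included the red cell membrane genes Slc4a1, Epb42, Rhag and Cldn13 and the stefin and apolipoprotein L genes. Shared lower genes included Klf6, Klf2, Txnip, Pdgfrb, H2-Ob and Gbp2. Both counts include genes with a value under 157, whose folds are not established. Among these are Epb42 (60.7) and Rhag (101) in wild-type LSK, Stfa3 on both wild-type arrays (52.4 and 45.8), and H2-Ob in Fbw7-deficient MP (104). The neutrophil genes Elane, Ms4a3 and Ltf were within 2-fold in MP, with MP differences of -0.15, 0.09 and 0.11. Whether a gene's difference in LSK exceeds that in MP was not tested, since either is a single pair of arrays.

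**Figure D4:**
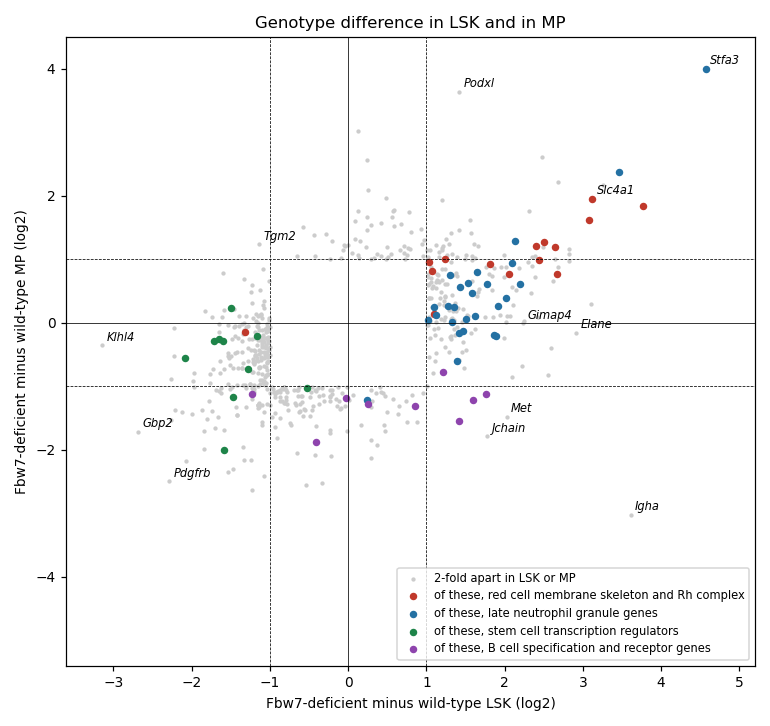
Log2 difference between genotypes in MP (y axis) against that in LSK (x axis) for genes at least 2-fold apart in either, with dashed lines at 2-fold; empty space in the middle follows from that choice. Many red cell membrane genes (red) reach 2-fold or near it in both populations, Stom (1.10 and 0.14) being an exception, late neutrophil granule genes (blue) other than Stfa3, Stfa2l1 and Lrg1 stay within 2-fold in MP except for a lower gene at -1.22 (Il1b), and Igha at 3.61 and -3.02 lies farthest into the opposite corner.

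Different probe sets of a gene, which sample different stretches of the same RNA on the same arrays, were compared as a check of measurement. Among the 219 higher genes 69 were also read by another probe set above the filter level. In 63 of them all further probe sets lay on the same side of 0, and in 43 at least 1 was also 2-fold higher. Of the 239 lower genes 98 had one, with the same side in 87 and 2-fold in 40. The further probe sets had a median difference of 1.08 for higher and -0.73 for lower genes. Among genes within 2-fold, a further probe set differed from the brightest by a median of 0.20. Probe sets share the RNA sample and its amplification, so this agreement bears on the probes and not on the mice.

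**Figure D5:**
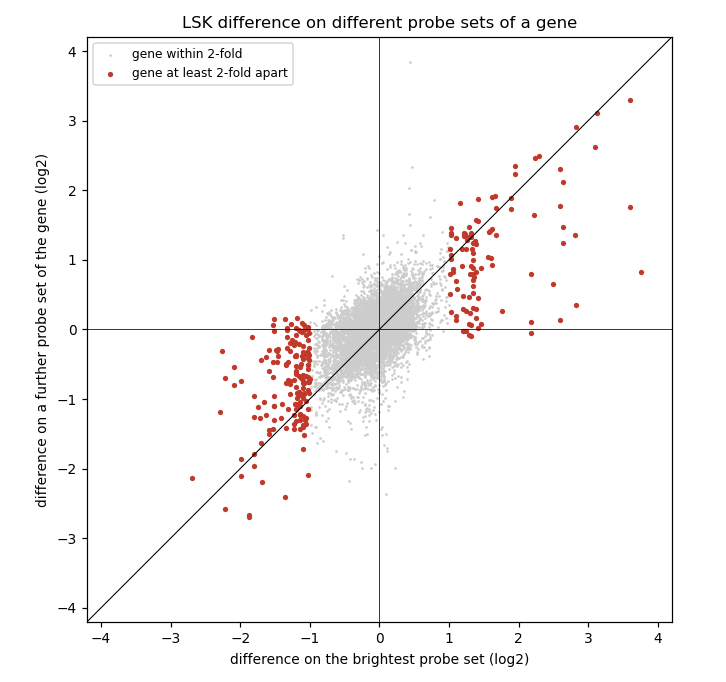
Log2 difference between the LSK arrays on a further probe set (y axis) against that on the brightest probe set of the same gene (x axis), for probe sets above the filter level, with genes at least 2-fold apart in red, other genes in grey, and the line of equality. Most red points share the sign of the brightest probe set, 63 of 69 higher and 87 of 98 lower genes having all of theirs on that side, while many lie nearer to 0 than the line.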

How the data were processed

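Affymetrix arrays of 45101 probe sets were measured on RNA of sorted mouse marrow cells, 1 array per group, with groups taken from the sample titles. The authors deposited 1 linear intensity per probe set and array, made with RMA per the submitters' processing notes (software and version: not given in the sources used here). This method equalises array distributions (medians 156, 159, 157 and 155), so a shift shared by most genes is not seen. Values were taken to log2 in Python 3.11.15 with pandas 2.3.3 and numpy 2.4.6.

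Of the probe sets, 34945 name 1 gene; those naming several (932) or none (9224, controls included) were used for no gene. Symbols of 34741 were updated by gene ID in a RefSeq table (GRCm38.p6). Each of 18193 genes took its brightest probe set, and 12239 genes reaching the median intensity were kept. "Higher" and "lower" counts use 2-fold. No test was made. The arithmetic was checked on simulated data.

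The rule for named genes takes the 25 largest differences each way among genes above the median level on both LSK arrays and the 10 largest each way among genes under it on 1. Clone names and genes with disagreeing probe sets are left out, and the rule adds up to 6 members per list (all of lists of up to 12) and a set of fixed names. Outside it, chosen after their values were seen, are Adamts3, Alas1, Ank1, Aqp9, Camp, Cd177, Chil3, Cryl1, Csf3r, Csrnp1, Ctsg, Cybb, Ddit3, Dnajb1, Dusp1, F10, Fech, Hba-a2, Hbb-b2, Hes1, Hmga2, Ighm, Ikzf2, Il1b, Jun, Lgals3, Lhfpl2, Lmo2, Meis1, Mmp8, Mpo, Mt2, Myb, Procr, Psmb9, S100a9, Slc25a37, Sptb, Stom, Tfr2, Tgm2, Tlr2, Tlr4 and Trbv1. The members, the 53 gene lists (2315 different genes) and the rule were chosen with earlier results of these data known. Lists overlap, so some genes are counted in several, and they are not independent. Promoter sequences are RefSeq windows of 300 bases. Alternatives were the mean of all probe sets, other level filters, a floor, centring by level and leaving out probe sets of several transcripts.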

Additional observations from a re-analysis of the deposited data

Results flagged for a closer look

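Some genes differed by at least 2-fold in opposite directions in LSK and MP, always as Fbw7-deficient minus wild-type on the log2 scale. Igha was at 3.61 in LSK and -3.02 in MP, and Jchain at 1.78 and -1.78. Blnk was at 1.60 and -1.21, Rag1 at 1.76 and -1.12, and Ly86 at 1.41 and -1.55. Met was at 2.02 and -1.48. Tgm2, the transglutaminase gene, went the other way at -1.14 and 1.24. In Fbw7-deficient MP, Rag1 (74.5) and Jchain (126) lay under an intensity of 157, so the size of their MP differences is not established. The difference between LSK and MP was not tested, since each group is 1 array.

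Probe sets that name no gene or several genes entered no comparison. Of 3399 above the filter level, a 2-fold difference was reached by 46 in the higher and 48 in the lower direction between the LSK arrays (1.35% and 1.41%).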

How the results depend on the processing

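No paired analysis was possible because every group holds 1 array, and no replicate could be left out. With the mean of all probe sets of a gene, 174 genes were at least 2-fold higher and 133 lower, where the brightest probe set gave 219 and 239; this averages in dimmer probe sets. Under the other 5 alternatives the counts were 194 to 229 higher and 206 to 254 lower. Of the 344 genes named by rule 153 were past 2-fold, and 23 of these went within it with the mean of all probe sets. Named genes no longer kept under that setting are not among the 23. Of the 53 list medians, 11 moved by over 0.1 with the mean of all probe sets, 9 with a filter at 2 times the median, 7 without a filter and 6 without probe sets of several transcripts. No gene named by rule and past 2-fold changed direction under these alternatives. Other level filters leave every difference as it was, and a floor on the values leaves little room for a reversal. The rule had also left out genes with disagreeing probe sets from its largest differences. The unchanged directions were thus largely fixed beforehand and are no check of the differences. Values under 157 are not shown to be above background, and the number of arrays limits every value.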
